A study of Mus musculus with 4 samples.

Results

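The 10 genes described here encode transcription factors of the AP-1 and Egr families and the RNA-binding protein Zfp36. They are Fos, Fosb, Fosl1 and Fosl2 of the Fos family, Jun, Junb and Jund of the Jun family, Egr1 and Egr2 of the Egr family, and Zfp36. They were chosen by name, and every probe set annotated to 1 of them alone was taken. This gave 15 probe sets of 45037 on the array, and all 10 genes of 18193 with a probe set were found. The arrays were Affymetrix Mouse Genome 430 2.0 arrays, on which 1 transcript is read by 1 or more probe sets of short oligonucleotides. RNA came from MC/9, a mouse mast cell line that the labels trace to liver of the (B6 X A/J)F1 background. All groups were grown with serum and the supplement Rat T-STIM. One group was left untreated (control). The others received 10 microM of the plant alkaloid berberine (BER), 500 microg/ml of an IgE antibody against the hapten dinitrophenyl (anti-DNP IgE, labelled DNP), or both agents together (BER+DNP). The 3 treated groups had 24 h with the agents and then 6 h of culture. The labels give no times for the control. With 1 array a group there is no replicate error. An additive fit of both agents over the 4 arrays would have 1 residual degree of freedom and was not made, so no p-value is given, and every difference below is between 2 arrays.

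Immediate early genes are transcribed within minutes of a stimulus, without new protein synthesis, and their mRNAs usually decay quickly. Fos and Jun proteins pair through leucine zippers to form AP-1, while Egr proteins bind GC-rich DNA through zinc fingers. Zfp36, also called tristetraprolin, binds AU-rich elements in mRNAs such as that of Tnf and speeds their decay. In mast cells, crosslinking of IgE on the receptor FceRI activates MAP kinases, and these raise Fos, Jun and Egr1 transcription. The labels name no antigen step that would crosslink the IgE. The arrays were read long after an immediate early peak, so they bear on levels at that late time.

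The promoters of Fos, Zfp36 and Junb are shown because Fos and Zfp36 took the same order of signals over the 4 arrays and Junb took a different one. The sequences are the 250 bases before the RefSeq start of each gene in GRCm38.p6, written 5′ to 3′ on the gene's strand. Fos lies on the plus strand at chr12:85473640-85473889, Zfp36 on the minus strand at chr7:28379229-28379478 and Junb on the minus strand at chr8:84978749-84978998. Capitals mark matches to the motifs named after the sequences.
Fos: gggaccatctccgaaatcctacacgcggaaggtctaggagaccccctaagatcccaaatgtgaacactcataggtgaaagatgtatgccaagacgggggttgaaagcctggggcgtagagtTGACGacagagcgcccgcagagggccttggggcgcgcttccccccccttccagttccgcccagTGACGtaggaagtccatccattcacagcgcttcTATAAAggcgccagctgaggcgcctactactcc
Zfp36: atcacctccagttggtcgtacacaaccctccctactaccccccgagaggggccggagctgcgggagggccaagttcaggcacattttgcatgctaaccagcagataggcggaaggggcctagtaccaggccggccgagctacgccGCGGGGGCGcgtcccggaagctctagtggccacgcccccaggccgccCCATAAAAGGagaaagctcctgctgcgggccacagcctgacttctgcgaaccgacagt
Junb: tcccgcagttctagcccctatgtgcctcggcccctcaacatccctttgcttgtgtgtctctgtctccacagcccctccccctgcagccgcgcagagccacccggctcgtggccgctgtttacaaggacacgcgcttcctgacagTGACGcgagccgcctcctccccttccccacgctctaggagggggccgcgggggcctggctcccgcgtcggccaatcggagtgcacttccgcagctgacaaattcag
The motifs were searched on both strands of these 250 bases. In Fos the capitals are TGACG, the core of the cyclic AMP response element, at 2 places, and the TATA box TATAAA nearest the start. In Zfp36 they are an Egr site, GCGNGGGCG, and a CArG box, the motif bound by serum response factor. In Junb they are TGACG at 1 place. Of the 10 members, 8 had an entry, with 12 windows in all, of which 5 are of Egr2. Several Egr2 windows overlap, so 1 site can be counted more than once. TGACG stood in 6 of the 12 windows, of 4 members (Fos, Fosb, Junb and Egr2), against 17.7% of all 32817 windows of this length. The CArG box stood in 5 windows, of 2 members (Zfp36 and Egr2), against 1.47% of all windows. The Egr site stood in 3 windows, of 3 members (Fosb, Fosl2 and Zfp36), against 4.70%. TATAAA stood in 1 window, that of Fos, against 12.4%. The full element TGACGTCA, which contains the TGACG core, and the AP-1 site TGANTCA stood in 0 of the 12 member windows, against 1.55% and 6.75% of all windows. Within these 250 bases Fos and Zfp36 thus had no motif of this search in common. Bases outside this stretch were not searched, so a match there would not be seen. A match is a stretch of letters only, and the arrays do not show which factor was bound.

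The deposited values are log2 signals, with array medians between 3.13 and 3.15 over all non-control probe sets. Pairs of arrays correlated across probe sets at r between 0.988 and 0.991. A gene was read by its brightest probe set. It entered counts if its mean log2 signal over the 4 arrays reached 3.138, which is the middle value of that mean over the non-control probe sets and is called the filter here, which left 12585 genes. Several genes that define mast cells read below it on all 4 arrays: Kit, Fcer1a, Ms4a2, Tpsab1, Mitf and Srgn did, and Cpa3 did except on BER, where it read 3.15. Of 13 mast cell markers, 6 passed, led by Gata2 and Hdc, and of 6 leukocyte markers 4 passed, without Ptprc. Markers of other cells also passed, 6 of 7 for epithelium, 5 of 6 for fibroblasts, 3 of 4 for T cells and 3 of 4 for macrophages. The brightest mast cell marker, Gata2, had a mean log2 signal of 5.87 over the 4 arrays. Brighter were the top markers of epithelium, Krt17 at 9.60, of T cells, Cd8a at 7.59, and of leukocytes, Laptm5 at 6.69. Dimmer were those of macrophages, Csf1r at 5.04, and of fibroblasts, Col1a2 at 4.32.

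Among the 10 members, 8 passed the filter and Fosb and Egr2 did not. With anti-DNP IgE alone, Fos read 1.64-fold higher than control and Zfp36 1.44-fold higher, while Junb read 1.26-fold lower. With anti-DNP IgE on top of berberine, Jund read 1.51-fold higher than with berberine alone. The other members stayed within 1.10-fold in both anti-DNP IgE pairs by their brightest probe sets.

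**Figure D1:**
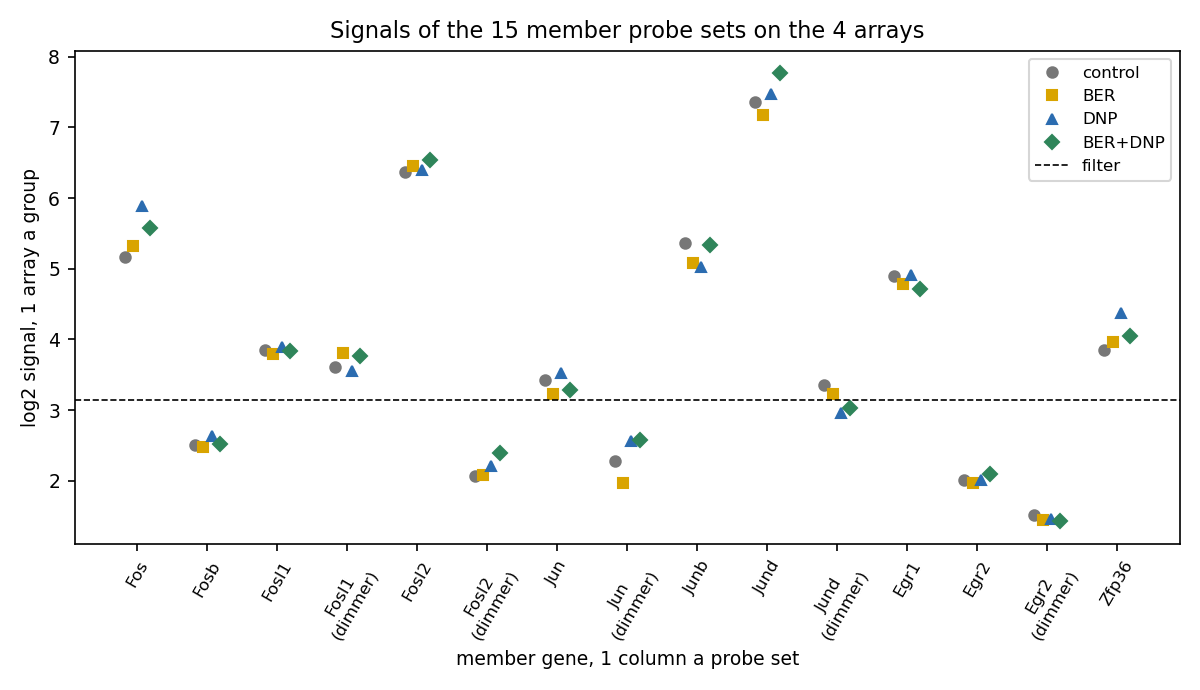
Log2 signal (vertical axis) of each of the 15 member probe sets (horizontal axis) on the 4 arrays, 1 point an array; the dashed line is the filter at 3.138. By brightest probe set, Fos, Fosl1, Jun, Egr1 and Zfp36 have their highest point on DNP, as 29.5% of genes past the filter do. Fosb does too, and Jund has its highest on BER+DNP. Fosb, both Egr2 probe sets and the dimmer Fosl2 and Jun probe sets lie under the line on every array.

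In DNP against control, 1 member, Fos, lay at least 1.5-fold higher, where 0.803% of all genes past the filter did. At least 1.5-fold lower lay 0 members, against 0.628%. In BER+DNP against BER, 1 member, Jund, lay at least 1.5-fold higher, against 0.556% of genes, and 0 lay lower, against 0.358%. The median log2 difference of the 8 members was 0.07 in DNP against control, where that of all genes was 0.02, and 0.09 in BER+DNP against BER, where that of all genes was 0.00. These 2 pairs share no array. In both pairs 6 members read above 0 (Fos, Fosl1, Fosl2, Jun, Jund and Zfp36), against 29.4% of all genes. Below 0 in both lay 0 members, against 26% of all genes. Most of the differences of the 6 above 0 were under 0.15 log2. With the median of all probe sets of a gene, Fosl1 gave -0.004 and -0.01 in these pairs and Jund -0.13 in DNP against control. Without the filter, with all 10 members, the medians were 0.07 and 0.09.

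Fos, the founding Fos family gene and a textbook immediate early gene, is read by 1 probe set. Its log2 signal was 5.17 in control, 5.32 with BER, 5.88 with DNP and 5.58 with both. Both arrays with anti-DNP IgE lay above both arrays without it, a layout that 18.1% of genes showed. The log2 difference was 0.71 in DNP against control and 0.26 in BER+DNP against BER, so the second was 0.45 smaller. In DNP against control, 0.278% of the 12585 genes lay at least as high as Fos, and in BER+DNP against BER 9.57% did. When the genes were split by brightness into 4 parts of like size, Fos fell in the brightest, where 0.381% lay at least 1.5-fold higher in DNP against control. With 32 added to the linear signals, the Fos difference in DNP against control was 0.42, under the 1.5-fold line. Of the 6 mast cell markers past the filter 5 also read above 0 in DNP against control, where 53.3% of all genes did. Their median was 0.24, led by Mcpt4, a granule protease gene, at 0.60 and Gata2 at 0.44. Hdc gave -0.10. Below the filter Cpa3 gave 0.65, Srgn 0.21, Mitf 0.18 and Kit 0.06, while Fcer1a gave -0.17, Ms4a2 -0.31 and Tpsab1 -0.35. The summed log2 signal of the 13 mast cell markers was 42.0 in control, 43.7 with BER, 43.7 with DNP and 44.1 with both, of which the dim Cpa3 made 1.90, 3.15, 2.55 and 2.51. Of the 6 epithelial markers past the filter 3 read above 0 in each anti-DNP IgE pair, where 53.3% and 48.8% of all genes did. Their medians were 0.07 and 0.04. Epcam gave 0.48 and 0.67, Krt5 -0.17 and -0.11 and Krt18 -0.19 and -0.10. The summed log2 signal of the 7 was 41.7 in control, 41.4 with BER, 42.4 with DNP and 42.2 with both. The part of these markers in the Fos and Jund differences was not tested, and fewer cells of a type cannot be told apart from less RNA per cell in these bulk samples.

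The other Fos family members gave small differences. Fosb, whose protein can extend AP-1 activity after repeated stimulation, read 2.50 in control, 2.47 with BER, 2.64 with DNP and 2.52 with both, below the filter on all 4 arrays. Fosl1, which encodes Fra-1, read between 3.80 and 3.89 by its brighter probe set, and 95.2% of genes had at least as wide a range over the 4 arrays. Fosl2, which encodes Fra-2, read 6.36 in control, 6.45 with BER, 6.40 with DNP and 6.53 with both, so both berberine arrays lay above both others, by at most 0.17. That layout was shown by 16.1% of genes. The dimmer Fosl2 probe set, below the filter at 2.07 to 2.39, went the same way as the brighter one in all 5 comparisons. The dimmer Fosl1 probe set, at 3.56 to 3.81, went the opposite way in all 5.

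The Jun family members, which can pair with themselves or with Fos proteins, did not move alike. Junb, whose protein often tempers Jun activity, is read by 1 probe set, at 5.36 in control, 5.08 with BER, 5.03 with DNP and 5.34 with both. Either agent alone went with a lower signal than control, and the array with both agents lay level with control. The log2 difference was -0.33 in DNP against control and 0.25 in BER+DNP against BER. The gap between these, 0.59, reached the 1.5-fold line by a narrow margin. At least that gap was shown by 1.96% of genes, and 1.97% lay past the line, where 1 of the 8 members did. In the opposite direction 0 members lay past it, against 2.30% of genes.

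Jund, usually the most steadily expressed Jun gene, read 7.35 in control, 7.18 with BER, 7.47 with DNP and 7.77 with both by its brighter probe set. Its highest array was BER+DNP and its lowest BER. The log2 difference was 0.12 in DNP against control and 0.59 in BER+DNP against BER, and 0.524% of genes lay at least as high in the latter. The dimmer Jund probe set, at 3.35, 3.23, 2.96 and 3.03 in the same order of arrays, lay close to the filter and gave -0.38 and -0.20. The 2 Jund probe sets therefore disagreed in direction in both anti-DNP IgE pairs. By the median of both, Jund gave -0.13 in DNP against control and 0.19 in BER+DNP against BER. With quantile normalization the latter was 0.54, and with 32 added to the signals 0.50, both under the 1.5-fold line.

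Jun, the founding Jun gene, read 3.42 in control, 3.22 with BER, 3.52 with DNP and 3.28 with both by its brighter probe set, close to the filter. Both berberine arrays lay below both others, as in 19.7% of genes. Its dimmer probe set read 2.27, 1.96, 2.56 and 2.58 in the same order, below the filter on all 4 arrays. That probe set gave 0.62 in BER+DNP against BER, where the brighter one gave 0.06. It is the only other member probe set past 1.5-fold in an anti-DNP IgE pair, which made 2 of 15 in BER+DNP against BER, against 0.511% of all probe sets.

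**Figure D2:**
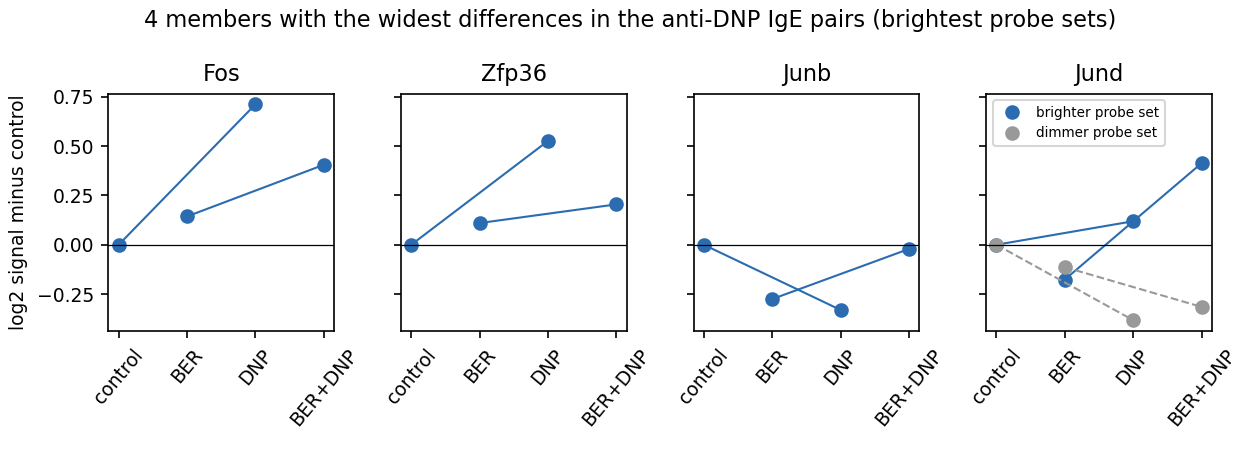
Log2 signal minus that of control (vertical axis) on each array for Fos, Zfp36, Junb and Jund, 1 point an array; lines join the arrays of each anti-DNP IgE pair, and grey dashes are the dimmer Jund probe set. The lines of Fos and Zfp36 both run upward, those of Junb cross, and the 2 Jund probe sets run in opposite directions.

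The Egr genes differed little with anti-DNP IgE. Egr1, a zinc finger factor that MAP kinase signalling induces in many cells, read 4.90 in control, 4.79 with BER, 4.91 with DNP and 4.72 with both. Its difference was 0.01 in DNP against control and -0.07 in BER+DNP against BER, the only member past the filter that read lower in the latter. Both berberine arrays lay below both others. Egr2, which in T cells takes part in restraint of activation, read between 1.97 and 2.10 by its brighter probe set and between 1.42 and 1.51 by the dimmer. The brighter Egr2 probe set had the same deposited value, 2.01, in control and DNP. Such exact ties occurred in 1.32% of genes past the filter in that pair.

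Zfp36 is read by 1 probe set, at 3.85 in control, 3.96 with BER, 4.37 with DNP and 4.05 with both. DNP stood apart as the highest array, and the other 3 lay within 0.21 of each other. The log2 difference was 0.53 in DNP against control, just under the 1.5-fold line, and 0.09 in BER+DNP against BER. At least as high as Zfp36 lay 1.39% of genes in the former and 30.8% in the latter. Fos and Zfp36 shared the order control, BER, BER+DNP, DNP from low to high, which 4.82% of genes showed. With 32 added to the signals, the Zfp36 difference in DNP against control was 0.18.

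**Figure D3:**
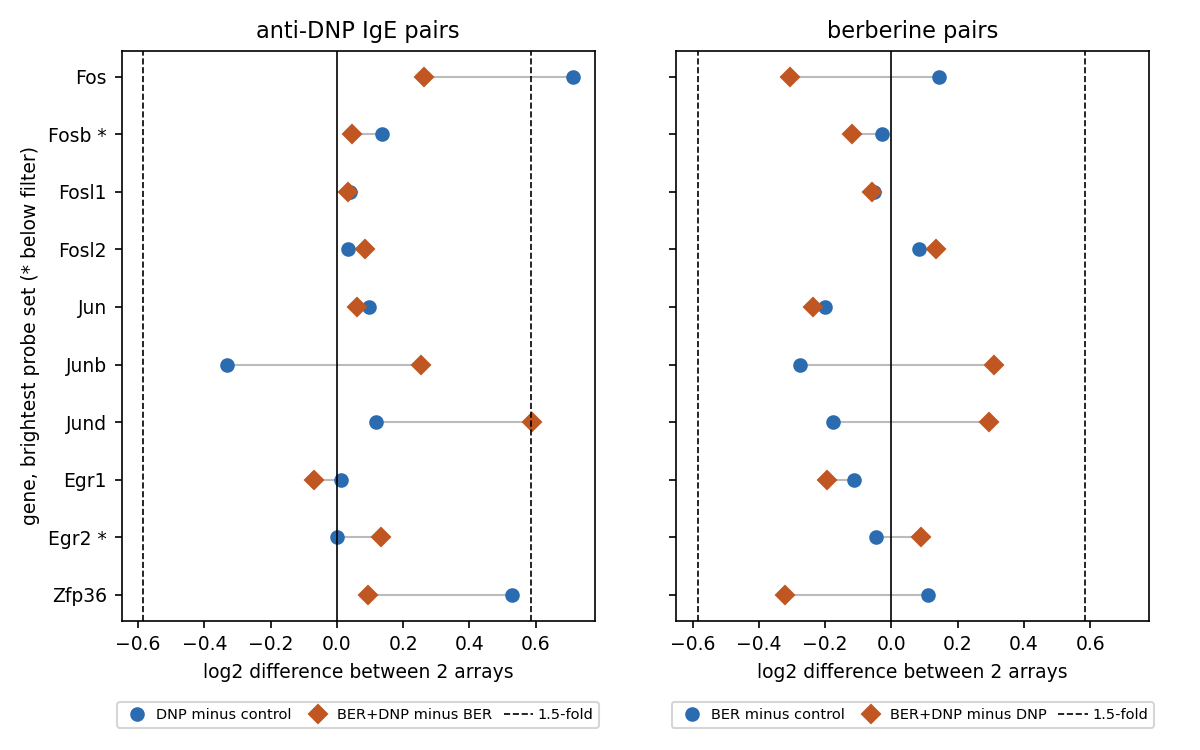
Log2 differences (horizontal axis) of the 10 genes by brightest probe set, for the 2 anti-DNP IgE pairs (left) and the 2 berberine pairs (right); dashed lines mark 1.5-fold and a star marks a gene below the filter. Fos in DNP minus control and Jund in BER+DNP minus BER are the points past the lines, and in the berberine pairs 0 points pass them.

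Berberine gave no member difference past 1.5-fold in either pair. In BER against control, 0 members lay at least 1.5-fold higher, against 1.01% of genes, and 0 lower, against 0.985%. In BER+DNP against DNP the corresponding counts were 0 and 0, against 0.509% and 0.699%. The medians of the 8 members were -0.08 and -0.13, where those of all genes were 0.00 and -0.02. Both signs turned with the median of all probe sets of a gene, to 0.05 and 0.07, and the latter also with the filter at the 75th percentile, to 0.14. Over all 15 member probe sets the median in BER+DNP against DNP was 0.01. The lowest member in BER against control was Junb at -0.28, followed by Jun at -0.20. In BER+DNP against DNP the lowest were Zfp36 at -0.32 and Fos at -0.31, and the highest were Junb at 0.31 and Jund at 0.29. Fos (0.14 without and -0.31 with anti-DNP IgE), Zfp36 (0.11 and -0.32), Junb (-0.28 and 0.31) and Jund (-0.18 and 0.29) changed sign between the pairs. Fosl1, Jun and Egr1 read lower in both pairs, as 29.7% of genes did, and Fosl2 higher in both, as 25.4% did. The remaining genes changed sign or had a tie, so a changed sign was common among all genes. By the median of its probe sets Fosl1 gave 0.07 in both. Control probe sets for beta-actin read lower with berberine, with -0.57 and -0.59 for the 5′ probe set and -0.31 and -0.22 for the 3′ one, while those for Gapdh gave 0.05 and -0.08 for 5′ and -0.03 and 0.02 for 3′. The poly-A spike-in controls gave medians of -0.48 and -0.14. The anti-DNP IgE pairs, first without and then with berberine, also showed shifts in control probe sets. Beta-actin gave 0.20 and 0.19 for 5′ and 0.01 and 0.10 for 3′. Gapdh gave 0.16 and 0.03 for 5′ and 0.01 and 0.06 for 3′. The poly-A medians there were -0.13 and 0.22. The part of these control readings in the member values was not tested in any pair.

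With both agents against control, Fos read 0.41 higher and Zfp36 0.21 higher, Egr1 0.18 lower and Junb 0.02 lower. Jund read 0.41 higher by its brighter probe set and 0.32 lower by the dimmer, with 0.05 for the median of both. Jun read 0.14 lower by its brighter probe set and 0.30 higher by the dimmer, with 0.08 for the median of both. At least 1.5-fold higher lay 0 members, against 0.906% of genes, and 0 lay at least 1.5-fold lower, against 0.874%. The member median was 0.07 and that of all genes 0.00. This comparison shares the control array with DNP against control and with BER against control.

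Of the 5 members with 2 probe sets, the signs over 5 comparisons matched in all 5 for Fosl2, in 3 for Jun, in 2 for Jund, in 1 for Egr2 and in 0 for Fosl1. Fos, Fosb, Junb, Egr1 and Zfp36 have 1 probe set each, so their values had no second reading. None of the 15 probe sets carries the suffix x or s that marks possible cross-hybridisation.

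Genes around these factors, in 10 lists, mostly gave differences under 1.5-fold in the anti-DNP IgE pairs. Among their genes past the filter Plk2 and Dusp16 were the exceptions, and below it the phosphatase gene Dusp4 gave -0.79 in DNP against control and -0.63 in BER+DNP against BER, and the AP-1 target Cd44 -0.66 in the latter. Among other immediate early genes, 16 of 27 passed the filter, with medians of 0.07 and 0.03. At least 1.5-fold higher lay 1 in DNP against control, against 0.803% of all genes, and 0 in BER+DNP against BER, against 0.556%. The gene past the line was Plk2, a polo-like kinase gene, with log2 signals of 4.40 in control, 4.70 with BER, 5.06 with DNP and 4.84 with both, the same order as Fos and Zfp36. Ier5 gave 0.36 and 0.06, and Btg2, which restrains cell division, 0.34 and -0.35. Ier2, another immediate early gene, gave -0.38 and -0.24.

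AP-1 partners, bZIP factors that can pair with Fos or Jun proteins or are close relatives, had 9 of 12 genes past the filter, 0 past 1.5-fold in either pair, and medians of 0.10 and -0.13. Jdp2, a Jun partner that represses AP-1 sites, gave 0.40 and 0.36, and Maf 0.34 and 0.11. Atf2, which pairs with Jun, gave 0.09 and -0.34. The gap between the anti-DNP IgE differences with and without berberine was below 0 in all 9, with a median of -0.23, where 52.8% of all genes read below 0. The gap shares the BER and control arrays with BER against control, in which all 9 read above 0, so these are not separate readings. Egr relatives and corepressors all 5 passed the filter, with medians of 0.04 and -0.12; Nab1, which represses Egr activity, gave -0.07 and -0.46 and Egr3 0.04 and -0.12.

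Upstream of these genes, factors of the serum response and cyclic AMP routes had 10 of 12 genes past the filter, 0 past 1.5-fold in either anti-DNP IgE pair and medians of 0.16 and 0.03. In DNP against control 9 of the 10 read above 0, where 53.3% of all genes did. Crem, a cyclic AMP-responsive factor gene, gave 0.39 and 0.40, and Elk1, which acts with serum response factor at Fos, gave 0.32 and -0.44. MAP kinase genes had 10 of 17 past the filter and medians of 0.05 and -0.02, with Map2k6, which activates p38, at 0.47 and -0.01. Phosphatases and Sprouty-type inhibitors that switch MAP kinases off had 13 of 16 past the filter and medians of 0.12 and -0.03. Dusp16, a phosphatase of JNK, lay over 1.5-fold lower in DNP against control at -0.64 and gave -0.40 in BER+DNP against BER; Dusp7 gave 0.37 and 0.27 and Dusp2 0.34 and 0.26. Jun regulators had 7 of 10 past the filter and medians of 0.03 and 0.09, with Mapk8ip1, a JNK scaffold, at -0.20 and -0.45.

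Downstream, AP-1 targets had 11 of 18 genes past the filter, 0 past 1.5-fold in either pair and medians of 0.03 and 0.02. Hmox1, which degrades haem, gave 0.34 and -0.30, and the gelatinase gene Mmp9 0.12 and 0.26. Zfp36 relatives and decay factors had 13 of 16 past the filter and medians of -0.06 and -0.05, with Pan3, of a deadenylase complex, at -0.06 and -0.30. Target mRNAs of Zfp36 had 9 of 14 past the filter and medians of -0.02 and -0.06, where those of all genes were 0.02 and 0.00. Of the 9, 2 read above 0 in DNP against control, where 53.3% of all genes did. They were the protease gene Plau at 0.22 and Ier3 at 0.22. Tnf, Csf2, Il2, Ccl3 and Vegfa lay between -0.06 and -0.01, and Lif gave -0.18. The lowest of the 9 was the chemokine gene Cxcl1, at 6.29 in control, 6.09 with BER, 5.78 with DNP and 5.91 with both. Its difference was -0.51 in DNP against control. Below the filter Ptgs2 gave 0.48 and Il3 0.31 in that pair, while Cxcl2 gave -0.58, Il6 -0.14 and Il10 -0.05.

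**Figure D4:**
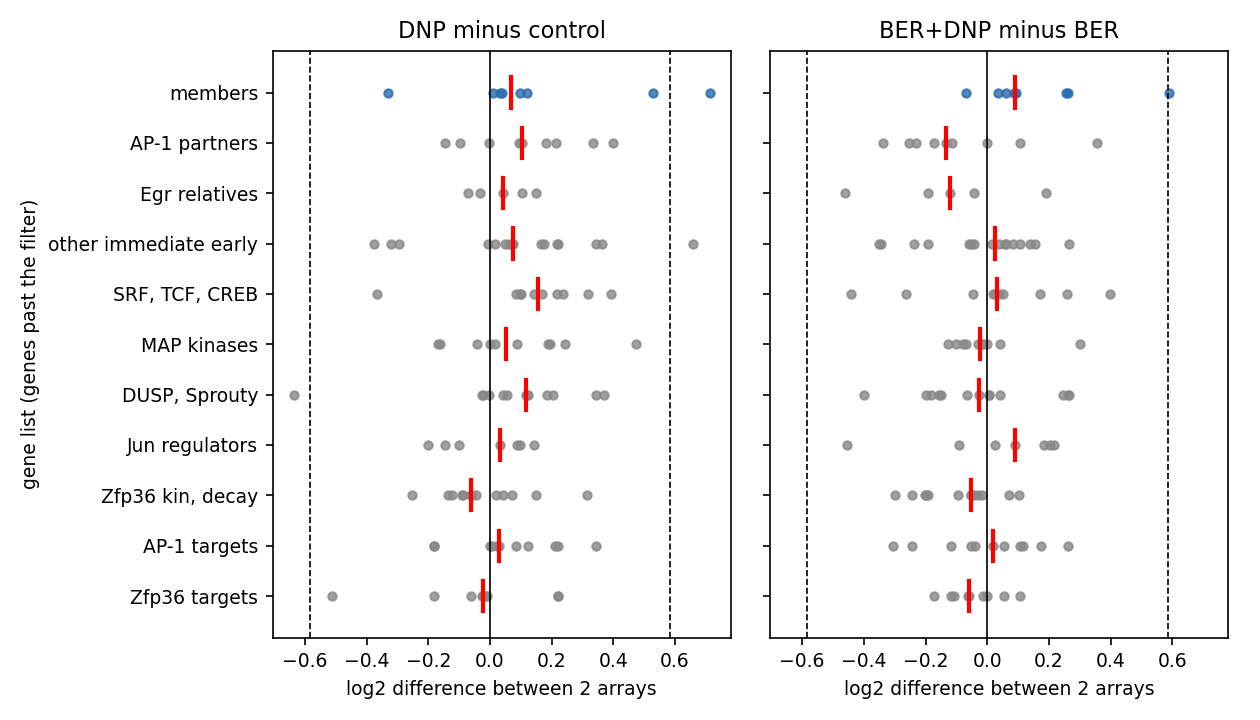
Log2 differences (horizontal axis) of the members and of the 10 related lists (vertical axis) in both anti-DNP IgE pairs, 1 point a gene past the filter, with the median of each list as a red bar and 1.5-fold as dashed lines. Past the lines lie Fos, Plk2 and Dusp16 on the left and Jund on the right, and all list medians lie within 0.25 of 0.

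The genes whose 4 signals, each centred on its own mean, lay closest to those of Fos by root mean square distance were F2 (0.0238 log2), Dcst2 (0.0262), Aifm2 (0.0265), Hif1an (0.0295) and Khdc4 (0.0377). Their differences in DNP against control were 0.66, 0.67, 0.72, 0.78 and 0.64, and in BER+DNP against BER 0.23, 0.32, 0.30, 0.27 and 0.20. F2 and Hif1an read below the filter in control, at 3.12 and 3.01. Zfp36 was the closest member, 53rd of 12584 genes at 0.0892. Junb was the farthest, at 0.372. A likeness over 4 arrays is a description of these arrays.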

How the data were processed

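The authors used Affymetrix Expression Console to make the deposited table, per the submitters' processing notes. Its version, summary algorithm and background correction were not given in the sources used here. The unit of the deposited values, log2 signals, was read from their range. The arrays had close medians, so the values were used as deposited. Any smoothing of low signals by the unstated algorithm remains and may narrow differences there. Of 45101 probe sets, 64 controls were set apart. Symbols came from a platform annotation dated 2016, which gave 1 symbol to 34945 probe sets, several to 932 (not named) and none to 9160. Differences were taken between log2 signals with Python 3.11.15 and pandas 2.3.3. The 1.5-fold counts of genes per comparison were first tested on simulated arrays with known changes. The motif search, the distances to Fos and the processing alternatives were not tested that way.

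The members, lists, filter and alternatives were chosen with earlier results of these data known. Named are all members, up to 4 genes a list by the anti-DNP IgE pairs and up to 2 by the berberine pairs, and the 5 genes nearest to Fos. Other marker genes are named as a check of the label. Promoter sequences are RefSeq's, build GRCm38.p6. The number of arrays limits the precision.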

Additional observations from a re-analysis of the deposited data

Results flagged for a closer look

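Junb was flagged because its paired differences had opposite signs and the gap between them reached the 1.5-fold line. The anti-DNP IgE pairs gave -0.33 without and 0.25 with berberine, and the berberine pairs -0.28 without and 0.31 with anti-DNP IgE. Opposite signs were common, since 29.4% of all genes read higher in both anti-DNP IgE pairs and 26% lower in both. The gap, which is the same number for both readings, was 0.59 log2, past the line by a narrow margin. At least that gap in that direction was shown by 1.96% of genes. The gap of Junb was 0.60 with quantile normalization and 0.31 with 32 added to the signals. With 1 array a group the difference was not tested, and 1 probe set reads the gene.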

How the results depend on the processing

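Of 110 counts and medians under the alternatives, 100 kept within 1.5 times of the count, or kept their side of the 1.5-fold line. The medians lay near 0, so they could hardly leave their side of that line. In DNP against control the count of members at least 1.5-fold higher went from 1 to 0 with 32 added to the signals, to 0 with a 2-fold line and to 2 (Fos and Zfp36) with a lower line, at 25% higher or the same fold lower, which 7.64% of genes passed; that of members lower went from 0 to 1 (Junb) with that lower line, against 6.13% of genes. In BER+DNP against BER the count higher went from 1 to 0 with the median of all probe sets, quantile normalization, 32 added and a 2-fold line. Of all genes past the filter, 0.409%, 0.556%, 0.0159% and 0% lay higher under these settings. In DNP against control 0.00794% lay higher with 32 added and 0% with a 2-fold line. With the lower line, 1 member was lower in BER+DNP against DNP, against 7.34% of genes, and 2 were higher in BER+DNP against control, against 7.45%. Lines at other folds and an added constant change these counts by construction; for the other alternatives the cause was not tested. The member median changed sign in 3 of 30 cases: the median over all probe sets of a gene gave 0.05 for BER against control and 0.07 for BER+DNP against DNP, and the filter at the 75th percentile gave 0.14 for the latter. Changes of the filter and removal of probe sets with suffix x or s could not change single member values. These are read before the filter, and none of their probe sets carries those suffixes. With these settings counted, single members gave 355 differences on the same side of the line and 5 that fell under it. Their sign changed in 9 cases, 8 of them with the gene median over probe sets (Fosl1, Jun and Jund) and 1 with quantile normalization (Egr1); 0 of the 9 were past the line at first. No paired analysis was possible because each group holds 1 array and the labels give no replicate numbers. Low signal limits Fosb, Egr2 and the dimmer probe sets.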

Other observations

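In the berberine pairs, genes around these factors, which outnumber the members, gave a few wider differences than the members did. Of those past the filter, only Mef2c and Hmox1 lay at least 1.5-fold higher in BER against control, where 1.01% of all genes did. No list gene lay lower there, against 0.985%, and no list gene passed the line in BER+DNP against DNP, against 0.509% higher and 0.699% lower. Mef2c, a transcription factor gene that MAP kinases act on, read 3.93 in control, 4.67 with BER, 4.15 with DNP and 4.40 with both, a difference of 0.74 without and 0.26 with anti-DNP IgE. Hmox1 gave 0.72 and 0.07, and Elk1 0.58 and -0.18. Mapk8, which encodes JNK1, gave 0.48 and 0.17. Lower were Elavl1, which encodes the mRNA-stabilising protein HuR, at -0.39 and -0.53, Cop1, a ubiquitin ligase gene for Jun proteins, at -0.47 and -0.30, Arc at -0.40 and -0.46, and the cytokine gene Lif at -0.51 and -0.27. All 9 AP-1 partner genes past the filter read above 0 in BER against control, with a median of 0.20, where 48.9% of all genes did. This pair shares its arrays with the gap described above, which was below 0 in the same 9 genes. In BER+DNP against DNP 3 of the 9 read above 0, where 45.4% of all genes did.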
